A study of Mus musculus with 2 samples.

Results

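The centromere-proximal ends are the first 2 Mb of assembled sequence on each mouse autosome, from position 3000001 to 5000000 as the deposited reads are numbered. They were chosen by position alone and divided into bins of 10 kb, which gave 200 bins on each of 19 chromosomes and 3800 of the 241539 autosomal bins. The reads come from chromatin immunoprecipitation sequencing (ChIP-seq), which recovers DNA fragments with an antibody and reads their ends. The antibody, sc-30486, was raised against Tnni2, the inhibitory troponin subunit of fast skeletal muscle. The cells were primary osteoblasts, the cells that form bone, of strain 129sv. One library, called mutant below, was made from Tnni2del175k/175k mice, which carry del175k on both copies of Tnni2, and the other from wild-type littermates. The text of the series states n = 3, with no word on pooling and no age. Every comparison is thus between 2 single libraries, without a test of genotype. These alignments do not report expression, so the cell type stands as labelled. An input library or one with a control antibody was not analysed here.

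Mouse autosomes carry the centromere at the end where coordinates begin. As background, mouse centromeres and the heterochromatin beside them consist of long tandem arrays of satellite repeats, which genome assemblies leave largely as a gap. The sequence next to that gap is often rich in satellite fragments and recent duplications. Short reads from such sequence match several places, so an aligner may drop them or place them on the copies that were assembled. How reads with several matches were handled is not given in the sources used here, and their part in the results below was not tested. No autosomal read began before position 3000001. The earliest 5′ end lay at 3000001 on chromosome 9, in the wild-type library. Coordinates are printed as the files give them, with the genome build uncertain, so no genes, exons or sequences are assigned to these ends.

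Counts below are distinct positions (chromosome, 5′ end and strand) unless reads are named. Intervals are exact at 95% and cover counting error only. The mutant library held 43210 positions from 48260 reads in the ends, and the wild-type library 41979 positions from 48581 reads. The whole of chromosomes 1 to 19 held 2927228 and 2821498 positions. The ends thus took 1.48% and 1.49% of the positions on 1.57% of the bins. The median bin of the ends held 10 positions for the mutant library and 9 for the wild type. Its middle 50% ran from 5 to 15 and from 4 to 14.

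Summed over most chromosomes, the ends were sparse beside the gap and reached the level of the chromosome within about 500 kb. Single chromosomes differed widely in this. Density was measured against 5 to 15 Mb of the same chromosomes, called the flank. Over 15 chromosomes, without 7, 9, 11 and 14, which are described on their own below, the first 100 kb lay at 0.569 times flank density for the mutant library and 0.640 times for the wild type. In that window 3 of the 15 lay above their flank for the mutant library and 4 for the wild type. Chromosomes 3, 4 and 17 held 151, 201 and 181 of the 969 mutant positions, while chromosomes 8, 12 and 16 held 3, 4 and 1. The median of all 19 chromosomes there was 0.231 and 0.239 times. Summed over the 15, the second 100 kb lay at 0.586 and 0.563 times, and the sixth, from 500 to 600 kb, at 0.988 and 0.990 times. Between 700 and 800 kb the sum fell again, to 0.924 and 0.888 times. Bins with no position in either library became rarer with distance up to 600 kb. They made up 34% of the bins in the first 100 kb of these 15 chromosomes, 9.33% in the second, 4.67% between 400 and 500 kb and 0 of 150 bins between 500 and 600 kb. Bins that were not empty were also thin near the gap, with a median of 4 positions in each library in the first 100 kb and of 11 in each between 500 and 600 kb. With all 19 chromosomes the first 100 kb lay instead at 2.72 and 2.91 times flank density. Chromosomes 9 and 11 held most of it, with 1297 and 3290 of the 5562 mutant positions there and 1136 and 3399 of the 5571 wild-type positions.

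**Figure D1:**
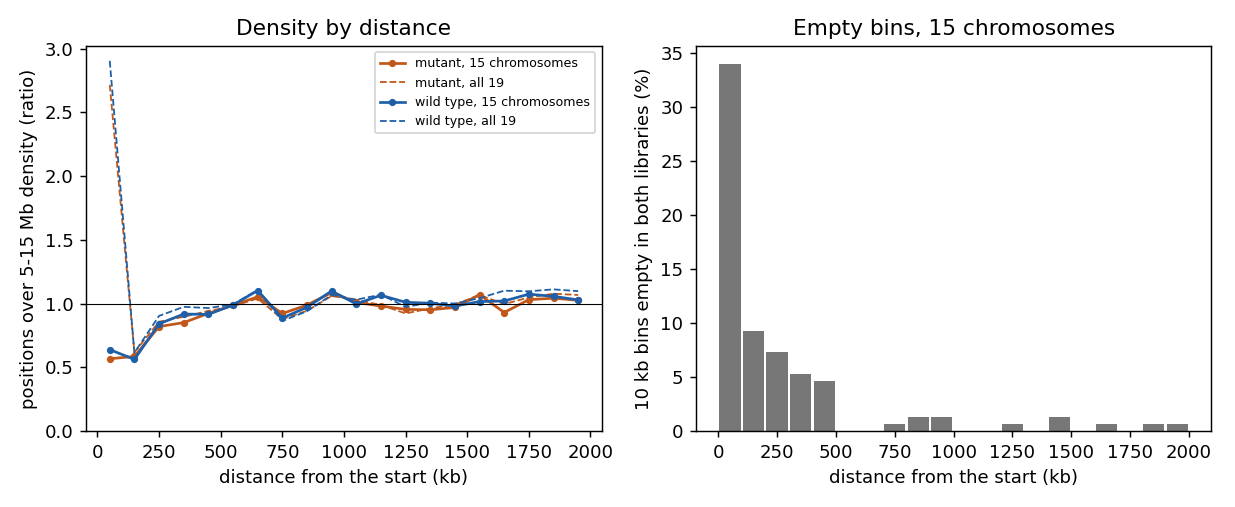
Left, distinct positions in windows of 100 kb as a ratio to the density of 5 to 15 Mb, against distance from the start of assembled sequence in kb, for 15 chromosomes (points) and all 19 (dashed), by library. Right, the share of 10 kb bins that are empty in both libraries on the 15 chromosomes, which falls from 34% in the first 100 kb to 0 between 500 and 600 kb.

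The single chromosomes differed widely, and the libraries ordered them much alike. In the mutant library 7 ends were denser than their flank with an interval above 1, on chromosomes 2, 5, 7, 9, 11, 12 and 19. Another 8 were sparser, on chromosomes 3, 4, 8, 10, 13, 14, 15 and 16. Of all 2 Mb windows outside the flanks, 59.6% were denser and 30.0% sparser in that library, so counting intervals excluded 1 in most windows and the ends held fewer dense windows than the background. In the wild-type library the end of chromosome 17 joined the denser ones, giving 8 denser and 8 sparser against backgrounds of 61.0% and 32.0%. The libraries put 16 of 19 ends on the same side of their flank. The exceptions were chromosomes 1, 6 and 18, whose intervals included 1 in both.

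Chromosome 11 had the densest end, at 3208.5 positions per Mb for the mutant library and 3348 for the wild type. That was 2.83 times (2.75 to 2.92) and 3.10 times (3.01 to 3.20) its flank. It exceeded all other 2 Mb windows of chromosome 11 in both libraries. The ends of chromosomes 3 and 13 were among the thinnest windows of their chromosomes. On chromosome 3 the end lay at 0.800 times (0.755 to 0.847) and 0.716 times (0.672 to 0.763) its flank, and 5.19% of the other windows were lower in each library. On chromosome 13 it lay at 0.733 times (0.694 to 0.773) and 0.748 times (0.707 to 0.790), with 8.77% and 12.3% of windows lower. The ends of chromosomes 16, 8, 15, 4 and 10 lay between 0.728 and 0.856 times their flank for the mutant library and between 0.739 and 0.818 times for the wild type. That of chromosome 8 depended on the flank, with 1.06 and 1.11 times against 5 to 10 Mb alone. The ends of chromosomes 2, 5, 12 and 19 lay between 1.07 and 1.26 times for the mutant library and between 1.17 and 1.35 times for the wild type. Of these, chromosome 5 lay at 0.996 times in the mutant library against 5 to 10 Mb alone, and chromosome 12 at 0.994 times there for 3 to 4 Mb alone.

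**Figure D2:**
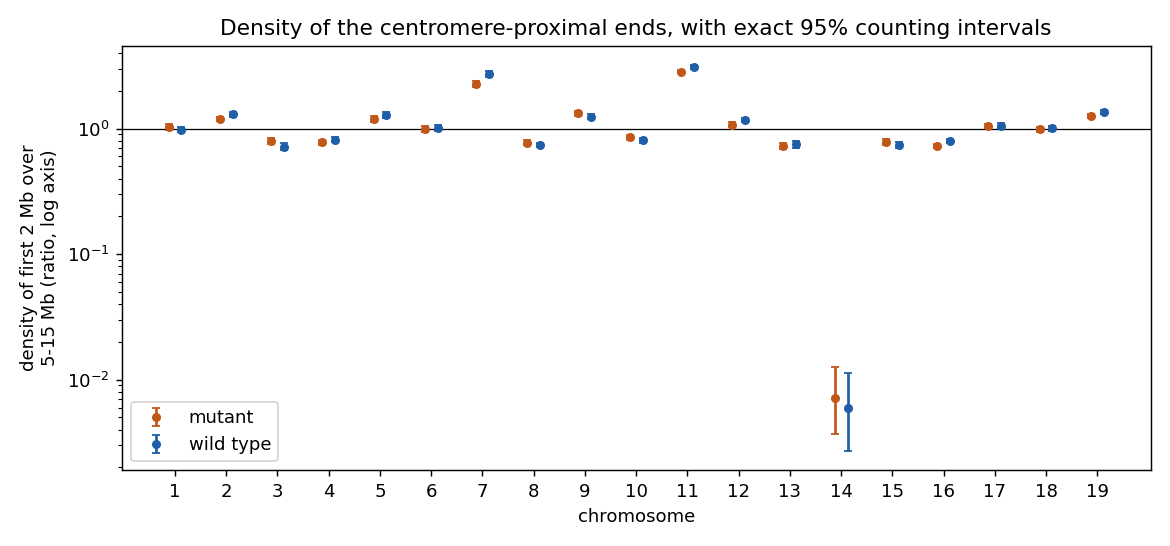
Density of distinct positions in the first 2 Mb over that of 5 to 15 Mb for each chromosome (log axis), by library, with exact 95% counting intervals. Chromosome 14 lies at 0.00721 and 0.00592, chromosomes 7 and 11 above 2, and the other ends between 0.716 and 1.35.

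Summed over the 19 ends, density was 1.06 times (1.04 to 1.07) flank density for the mutant library and 1.09 times (1.08 to 1.11) for the wild type. This excess rested on chromosomes 9 and 11, which held 20.9% and 21.2% of the end positions. Without these the sums were 0.931 times (0.921 to 0.942) and 0.961 times (0.950 to 0.972). The direction for the other 17 together was thus the opposite, but they include the almost empty end of chromosome 14, which lowers the sum. Without chromosomes 7, 9, 11 and 14 the sums were 0.939 times (0.927 to 0.950) and 0.960 times (0.948 to 0.972). A sum without chromosomes 9, 11 and 14 that keeps the dense end of chromosome 7 was not computed. The median of the 19 ends lay at 0.991 and 1.01 times. The last 2 Mb of each chromosome, its telomere-proximal end, were denser. The centromere-proximal ends lay at 0.893 times (0.882 to 0.905) that density for the mutant library and 0.891 times (0.879 to 0.903) for the wild type. In the mutant library 6 of 19 were denser than the distal end of their own chromosome, on chromosomes 10, 11, 12, 17, 18 and 19, and 13 were sparser. In the wild-type library 6 were denser and 12 sparser.

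The end of chromosome 14 was almost empty. It held 12 positions for the mutant library and 9 for the wild type over 2 Mb, 0.00721 times (0.00373 to 0.0126) and 0.00592 times (0.00271 to 0.0112) flank density. No bin held more than 1 position for the mutant library or 2 for the wild type. Of its 200 bins, 181 (90.5%) were empty in both libraries. The longest empty stretches ran from 3210001 to 3650000 and from 3660001 to 4010000. The thin stretch continued beyond the end, and the first 100 kb window with at least 50% of flank density in both libraries began at 8500001. The flank of chromosome 14 was therefore partly empty itself, and against 10 to 20 Mb the end lay at 0.00516 and 0.00428 times.

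Other ends held shorter empty stretches. Over all ends 307 bins (8.08%) were empty in both libraries, against 3.02% of all autosomal bins. Of the flank bins 5.54% were empty in both. Without chromosome 14 the shares were 3.50% in the ends and 4.12% in the flanks. The autosomal share of 3.02% still contains chromosome 14. Chromosome 7 had a stretch of 180 kb from 3670001 to 3850000. Chromosome 16 had 2 stretches of 80 kb, from 3000001 to 3080000 and from 3150001 to 3230000, and no read in its first 82.6 kb for the mutant library or 115 kb for the wild type. Chromosome 4 was empty for 70 kb from 3020001, chromosome 19 for 70 kb and chromosome 8 for 50 kb from the gap itself. Chromosomes 2, 11 and 17 had no empty bin.

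**Figure D3:**
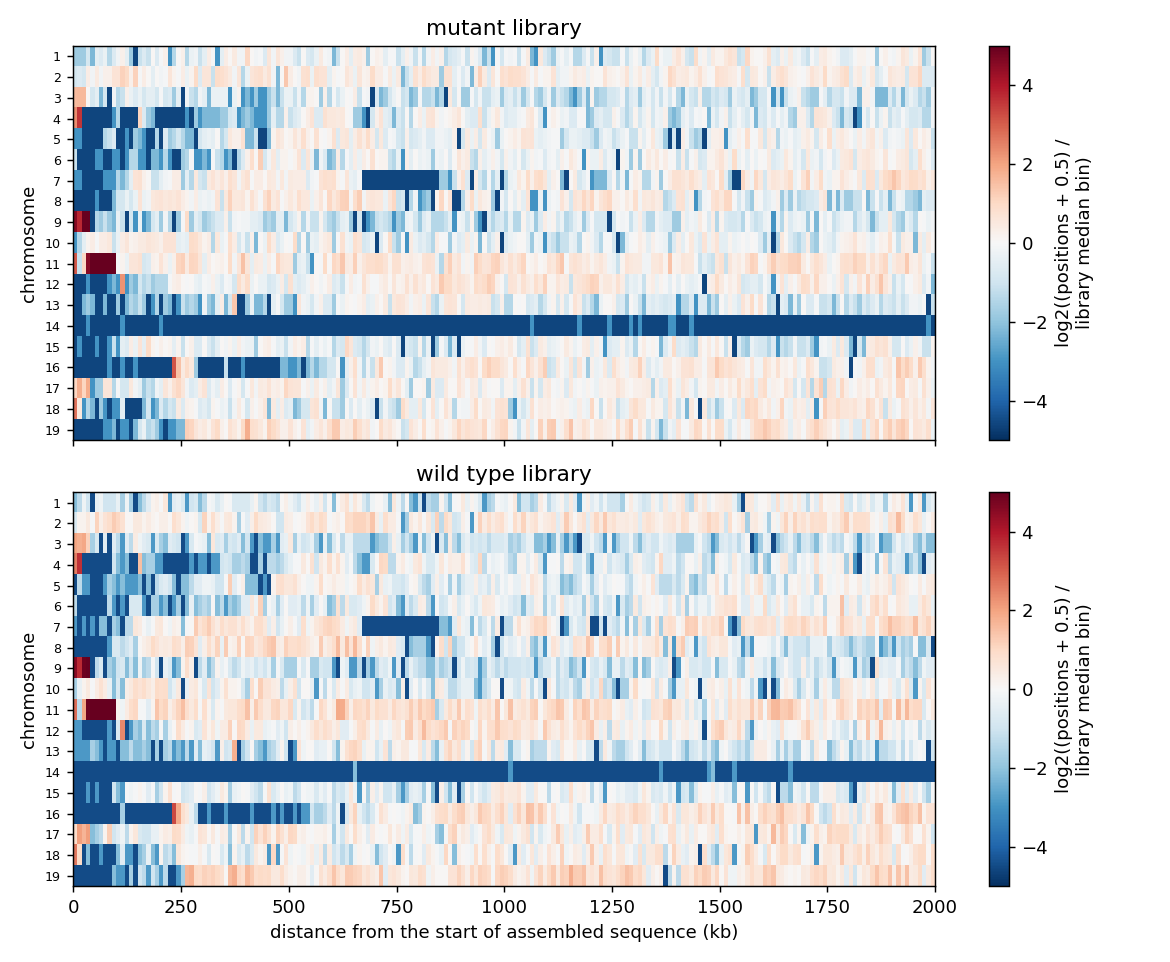
Each of the 200 bins of 10 kb (columns, by distance from the start of assembled sequence in kb) on each chromosome (rows), coloured by log2 of distinct positions plus 0.5 over the library's median autosomal bin, 12 (mutant) and 11 (wild type). Dark blue marks empty bins, as along chromosome 14, and dark red the dense stretches at the start of chromosomes 9 and 11.

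The densest bins of the autosomes were concentrated in these ends. In each library 12 end bins (0.316%) reached 10 times the median autosomal bin, against 0.00745% of all autosomal bins for the mutant library and 0.00621% for the wild type. Among the 20 densest autosomal bins, 12 for the mutant library and 13 for the wild type lay in the ends. The 12 bins were the same in both libraries, 7 on chromosome 11, 4 on chromosome 9 and 1 on chromosome 4. The 10-fold level was chosen after the values were seen.

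The stretch on chromosome 11 from 3030001 to 3100000 was dense, broad and made of many different fragments. Its 70 kb held 3158 positions for the mutant library and 3278 for the wild type, 49.2% and 49.0% of all positions of that end. Its 7 bins held between 284 and 562 positions for the mutant library and between 317 and 615 for the wild type. In windows of 1 kb the count never fell below 8 and 13, with medians of 44 and 43. The next 50 kb held 13.8 and 15.4 positions per 10 kb, and the 10 kb before it, from 3020001, held 24 and 42. Positions with a single read made up 90.8% and 87.5%, and no position held more than 4 reads for the mutant library or 5 for the wild type. Identical positions in both libraries numbered 142, which is 4.50% of the mutant and 4.33% of the wild-type positions.

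The stretch on chromosome 9 from 3000001 to 3040000 was as dense in places but uneven and full of repeated reads. It held 1280 positions for the mutant library and 1121 for the wild type, 49.2% and 50.6% of that end. Its 4 bins held 285, 162, 416 and 417 positions for the mutant library and 259, 144, 326 and 392 for the wild type. Windows of 1 kb ranged from 0 to 133 and from 0 to 120, and 6 and 8 of the 40 were empty. Only 54.1% and 56.6% of its positions held a single read, 89 and 71 positions held 5 or more, and the fullest held 9 and 12. The libraries shared 625 positions to the base, 48.8% of the mutant and 55.8% of the wild-type positions. In the flanks of all chromosomes the shares were 0.179% and 0.191%, and in the ends without chromosomes 9 and 11 they were 0.424% and 0.439%. Beyond this stretch the next 50 kb of chromosome 9 held 3 and 2.6 positions per 10 kb. Without its pile-up bins the end of chromosome 9 fell from 1.32 and 1.24 times flank density to 0.685 and 0.626 times.

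Both stretches had the same shape in the 2 libraries. Across 1 kb windows the counts of the libraries had a Spearman rho of 0.988 on chromosome 9 (40 windows) and 0.910 on chromosome 11 (70 windows). Windows are not replicates, and the 2 libraries share the genome placement of their reads. By distinct positions chromosome 11 was higher, at 33.1 and 37.7 times the median autosomal bin over the 80 kb from 3020001. Chromosome 9 stood at 26.7 and 25.5 times. By all reads the order turned, because the fold over the flank median, as the geometric mean of the libraries, rose from 35.3 to 60.9 for chromosome 9 and from 38.7 to 39.8 for chromosome 11.

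**Figure D4:**
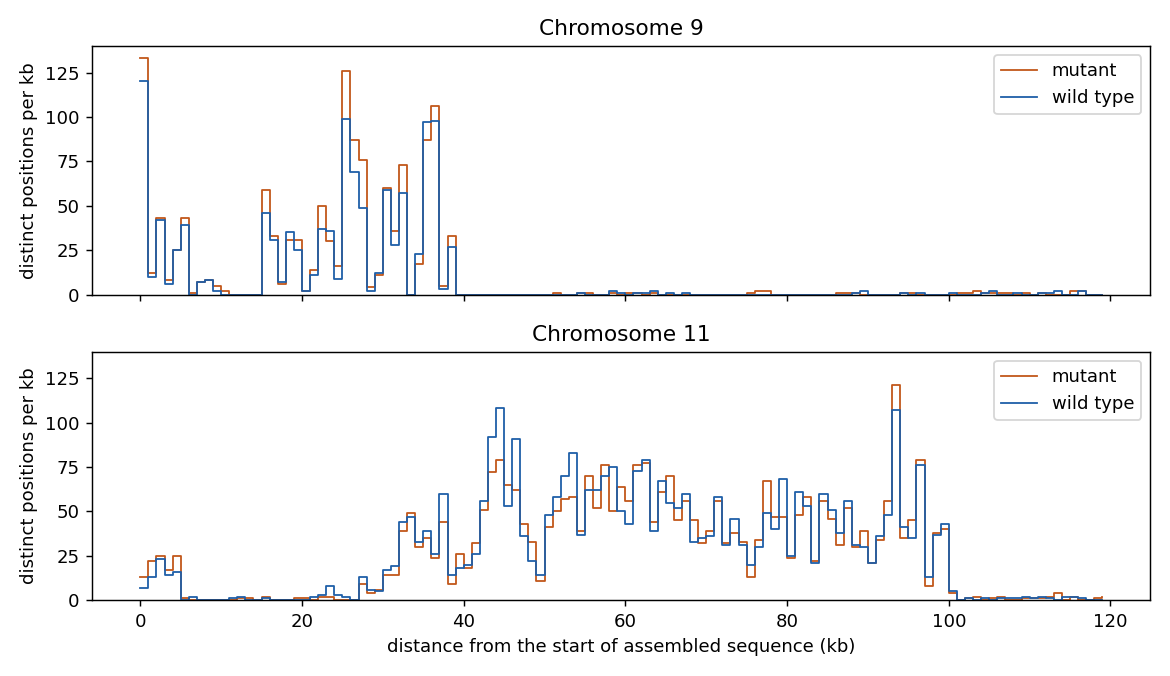
Distinct positions per kb over the first 120 kb of chromosomes 9 and 11, by library. On chromosome 9 the counts swing between 0 and 133 per kb and drop at 40 kb, while on chromosome 11 they stay at 8 or more per kb from 30 to 100 kb.

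Pile-ups were counted by a rule: a bin with 20 or more positions and at least 3 times the median flank bin of its chromosome and library. The rule gave 54 bins for the mutant library (1.42% of the end bins) and 83 for the wild type (2.18%). Of all autosomal bins it called 1.97% and 4.06%, so pile-ups by this rule were no more frequent in the ends. The libraries shared 42 of these bins, 77.8% (64.4 to 88.0%) of the mutant and 50.6% (39.4 to 61.8%) of the wild-type calls. Chromosome 7 supplied 28 and 33 of the end calls. Its flank is itself sparse, with a median bin of 2 positions for the mutant library and 1 for the wild type and 41.3% and 44.5% of the flank bins empty. The end of chromosome 7 stood at 2.27 times (2.16 to 2.39) and 2.73 times (2.60 to 2.88) that density. Against 10 to 20 Mb it stood at 1.59 and 1.70 times. Its median bin of 11 and 12 positions was close to that of all autosomes. Without chromosome 7 there were 26 and 50 pile-up bins, 0.722% and 1.39% of the remaining end bins, of which 25 were the same. The autosomal shares of 1.97% and 4.06% include chromosome 7, counted against the same low flank median. An autosomal share without it was not computed.

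Adjacent pile-up bins of either library formed 58 runs, 25 of them on chromosome 7, 10 on chromosome 11, 5 on chromosome 5, 4 on chromosome 19 and none on chromosomes 1, 2, 8, 10, 14 and 15. The rule for naming took the 20 with the highest fold over the flank median. The stretches on chromosomes 11 and 9 led, and the other 18 all lay on chromosome 7. Those 18 were 10 to 50 kb long, held 17 to 120 positions for the mutant library and 18 to 122 for the wild type, and had between 1.02 and 1.28 reads per position. They stood at 7.75 to 12 times the median flank bin of chromosome 7 for the mutant library and at 18 to 26 times for the wild type. Against the median autosomal bin they stood at only 1.29 to 2 times and 1.64 to 2.36 times. As the geometric mean of the libraries, the fold ran from 12.7 to 17.2, and from 4.01 to 5.43 with 10 to 20 Mb as the flank. The longest ran from 4880001 to 4930000 with 120 and 122 positions. Those of 30 kb ran from 3580001 to 3610000 with 62 and 66, from 4070001 to 4100000 with 62 and 66 and from 4420001 to 4450000 with 54 and 75.

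Against the median autosomal bin instead, a reference chosen after the values were seen, the ends held 22 pile-up bins for the mutant library (0.579%) and 39 for the wild type (1.03%). Of all autosomal bins 0.100% and 0.431% passed. The direction against the background thus turned with the reference. All 22 mutant bins were also called in the wild-type library, 56.4% (39.6 to 72.2%) of the wild-type calls. The thresholds were 36 and 33 positions, which lets more wild-type bins pass at equal counts. Of the 22, 21 lay within the first 250 kb of their chromosome. The exception lay on chromosome 19 from 3400001 to 3410000, with 42 and 33 positions.

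The runs called in both libraries by that reference fell on 9 chromosomes and differed in make-up. On chromosome 12 from 3110001 to 3120000 nearly all reads lay in 1 spot. Its bin held 56 and 58 positions, of which 54 and 57 fell in the 500 bp from 3110001, and 2.55 and 2.83 reads per position. The libraries shared 37 of these positions, 66.1% of the mutant and 63.8% of the wild-type ones. On chromosome 18 from 3000001 to 3010000 the bin held 79 and 68 positions, with 38 and 24 in the 500 bp from 3005501 and 12 shared. On chromosome 4 from 3000001 to 3020000 there were 200 and 202 positions, 8.33 times (7.22 to 9.57) and 9.18 times (7.96 to 10.5) the median autosomal bin, followed by 70 kb with none.

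Of the other shared runs, some filled their bins unevenly. On chromosome 16 the stretch from 3230001 to 3250000 held 139 and 147 positions, with 20 and 21 in the fullest kb, and followed directly on 80 kb that were empty. The first 10 kb of chromosome 11 held 103 and 75 positions, 8.58 times (7.01 to 10.4) and 6.82 times (5.36 to 8.55) the median autosomal bin, and 102 and 73 of them lay in its first 5 kb. Chromosome 17 from 3010001 to 3040000 held 110 and 126 positions, and chromosome 3 from 3000001 to 3030000 held 107 and 121. On both, 1 position was shared between the libraries. Runs called in the wild-type library alone numbered 10, and the mutant library held 14 to 52 positions in them.

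Repeated reads beyond the background of the libraries were tied to a few bins. The ends had 1.117 reads per position for the mutant library and 1.157 for the wild type, against 1.090 and 1.132 over chromosomes 1 to 19. Repeats, meaning reads that start where another already does, made up 10.5% (10.2 to 10.7%) and 13.6% (13.3 to 13.9%), against 8.21% and 11.5% in the flanks. Of end bins with 20 or more positions, 5 of 352 (1.42%) for the mutant library and 5 of 412 (1.21%) for the wild type had 1.5 or more reads per position. The background was 0.0414% and 0.121%, and the level of 1.5 was chosen after the values were seen. They were the same 5 bins, the 4 of chromosome 9 and the 1 of chromosome 12 from 3110001. On the whole end of chromosome 9 repeats made up 33.9% (32.4 to 35.4%) and 34.2% (32.6 to 35.8%) of the reads, on that of chromosome 11 8.73% (8.08 to 9.42%) and 12.0% (11.3 to 12.8%). Without pile-up bins the ends had 1.087 and 1.131 reads per position.

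The distances between reads also set the stretch on chromosome 9 apart. Pairs of positions on the same strand 5 to 36 bp apart, within 1 read length, were 6.98 and 6.83 times as frequent there, per bp of distance, as pairs 50 to 1000 bp apart. On chromosome 11 the values were 1.48 and 1.44, in the ends outside pile-up runs 1.40 and 1.49, and in the flanks 1.35 and 1.39. Over all pile-up runs the most frequent distance between 50 and 1000 bp was 53 bp for the mutant library and 50 bp for the wild type, at the lower edge of the range searched. Among distances of 150 bp or more, 499 bp was most frequent on chromosome 9 in both libraries, at 2.24 and 2.36 times the mean. On chromosome 11 the values were 159 and 179 bp, at only 1.24 and 1.19 times the mean. The bound of 150 bp was set after the profiles were seen.

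The libraries were almost equal over the ends as a whole. Scaled to the positions on chromosomes 1 to 19, the mutant to wild-type ratio of the summed ends was 0.992 (0.979 to 1.01). In the flanks it was 1.03 (1.02 to 1.04). The odds ratio of end against flank positions was 0.964 (0.950 to 0.979), so the ends stood slightly lower in the mutant library than their flanks did. Counting error is the only error known here, and other windows moved as far. Of 2 Mb windows outside the flanks 14.7% had an odds ratio above 1 and 37.0% below 1, against 2 and 6 of the 19 ends.

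Between chromosomes the ratio ran from 0.900 (0.849 to 0.953) on chromosome 16 to 1.19 (1.10 to 1.29) on chromosome 3, leaving out chromosome 14. There 12 and 9 positions gave 1.29 (0.497 to 3.45), and a difference was not detectable at this depth. Counting error excluded 1 for 6 ends above it, on chromosomes 1, 3, 6, 9, 10 and 15, and for 5 below it, on chromosomes 2, 7, 11, 16 and 19. Of all 2 Mb windows outside the flanks 30.2% lay above and 22.9% below. Chromosome 9 had a ratio of 1.13 (1.07 to 1.20) and chromosome 11 of 0.924 (0.892 to 0.956). Chromosome 7, with 2193 and 2287 positions, had 0.924 (0.871 to 0.980), while its flank had 1.11 (1.07 to 1.16). Denser ends tended to have lower ratios. The 6 ends above 1 held between 618 and 1204 positions per Mb as the mean of the libraries, and the 5 below 1 between 1120 and 3278. Over 18 ends, without chromosome 14, density and ratio had a Spearman rho of -0.678, as a description of 2 libraries whose counts enter both measures. The extreme flanks differed in the same direction. The sparsest flank, on chromosome 7 with 483 and 418 positions per Mb, had 1.11. The densest, on chromosome 16 with 1557 and 1527, had 0.983. The next sparsest, on chromosome 5 with 779 and 668, had 1.12, and the next densest, on chromosome 8 with 1466 and 1463, had 0.966. The same direction was thus seen at both extremes of the flanks and was not confined to the ends. A rho over all flanks was not computed.

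**Figure D5:**
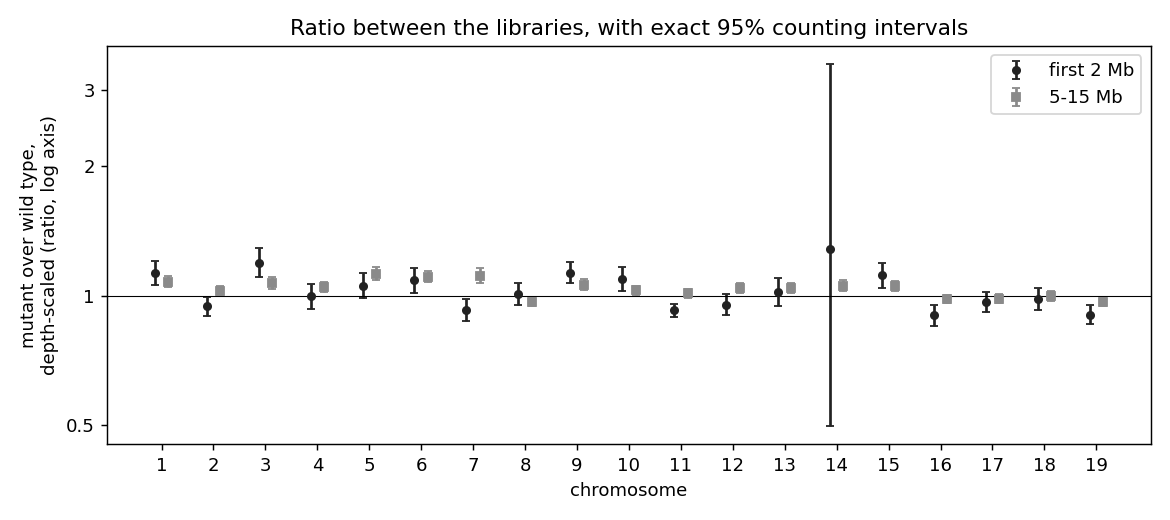
Depth-scaled ratio of mutant to wild-type positions for each chromosome (log axis), in the first 2 Mb (circles) and in 5 to 15 Mb (squares), with exact 95% counting intervals. The ends lie between 0.900 and 1.19 apart from chromosome 14, whose interval runs from 0.497 to 3.45.

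No single bin of the ends differed between the libraries. Among 1900 end bins where the 2 libraries summed to 20 positions or more, 0 had an interval, widened for all 148261 such autosomal bins, that excluded 1. Over the autosomes 0.00742% excluded it with a higher mutant count and 0.00270% with a lower one. With the unwidened 95% interval 102 end bins (5.37%) excluded 1, against 4.16% of all bins compared. The median ratio was 0.964 in the ends and over all these bins. Any bin with equal counts in the 2 libraries takes this value after scaling, so the tie does not show that the ends are like the rest. Of the end bins 90% lay between 0.514 and 2.04. A bin absent from the mutant library needed 22 wild-type positions to be called, so severalfold differences in most bins were not detectable at this depth. The lowest ratio was 0.175 (0.0439 to 0.516) on chromosome 10 from 4220001, with 4 and 22 positions. The highest was 5.78 (1.69 to 30.7) on chromosome 2 from 3380001, with 18 and 3. Both were named after their values were seen.

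The dense bins allowed closer limits. Over the 7 bins of the stretch on chromosome 11, the ratio ran from 0.864 (0.733 to 1.02) at 3030001 to 1.01 (0.896 to 1.14) at 3060001, and on chromosome 9 from 1.03 (0.891 to 1.18) at 3030001 to 1.23 (1.06 to 1.43) at 3020001. Over its whole run chromosome 9 had a ratio of 1.10 (1.01 to 1.19) and chromosome 11 of 0.924 (0.880 to 0.970). The chromosome 11 run also takes in the bin at 3020001, with 24 and 42 positions and a lower ratio of 0.551 (0.319 to 0.931). The widened interval of that bin included 1. In the chromosome 9 run 625 positions were the same in both libraries, so its positions are not independent counts and its intervals are nominal. By all reads the whole end of chromosome 9 had 1.17 (1.11 to 1.22), against 1.13 by positions. The runs on chromosomes 4, 12, 16 and 18 had ratios of 0.954 (0.781 to 1.17), 0.931 (0.633 to 1.37), 0.911 (0.718 to 1.16) and 1.12 (0.799 to 1.57).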

How the data were processed

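ChIP-seq reads of 1 mutant and 1 wild-type library were analysed. Per the submitters' processing notes reads were aligned with Bowtie; version, settings and the handling of multiple matches: not given in the sources used here. The deposited files list 1 read of 36 bp per line. The score deposited by the authors was 255 on every line and was not used. The series text names mouse reference 8, but the last read on chromosome 7 ends at 152524453, which from general knowledge lies beyond the end of that chromosome in mm8 but not in mm9. The build is therefore uncertain, and the GRCm38 gene and promoter tables at hand were not used.

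Of 3273273 mutant and 3305140 wild-type reads, 3189487 and 3193402 lay on chromosomes 1 to 19. Reads were assigned to bins by their 5′ end. Ratios carry exact Clopper-Pearson intervals of the split of counts, folds over a median exact Poisson intervals of the numerator, and odds ratios exact conditional intervals (large-sample ones for the background windows). Reads copied by PCR are not independent, so intervals cover counting error only. Named were all 19 ends, the 20 pile-up runs with the highest fold (0.5 added to counts) and bins that differ between libraries. The members and settings were chosen with earlier results of these data known. The pile-up rule and intervals were tried on simulated independent Poisson counts, for the rule around a flat level per chromosome. Real bins vary more, so this gives no error rates for these data. Scripts ran in Python 3.11.15. The packages were matplotlib 3.10.9, pandas 2.3.3, scipy 1.17.1 and numpy 2.4.6.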

Additional observations from a re-analysis of the deposited data

Results flagged for a closer look

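Chromosome X lies outside the autosomal comparisons, and its first 2 Mb gave 34 positions for the mutant library and 55 for the wild type, above the 3 that a count of 0 allows. That is 0.0276 times (0.0191 to 0.0387) and 0.0316 times (0.0238 to 0.0411) the density of 5 to 15 Mb of X. The ratio between the libraries was 0.596 (0.377 to 0.930), and it was 0.680 (0.658 to 0.703) over 5 to 15 Mb of X, with 6151 and 8715 positions. The lower mutant count was thus shared by that flank.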

How the results depend on the processing

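The summed density of the ends against the flank, 1.06 (mutant) and 1.09 (wild type), did not keep its direction. It was 0.924 and 0.939 without pile-up bins, 0.931 and 0.961 without chromosomes 9 and 11, 0.939 and 0.960 without chromosomes 7, 9, 11 and 14, and 0.909 and 1 as median bin over median bin. It was 1.08 and 1.12 with every aligned read, 1.08 and 1.12 against 5 to 10 Mb, 1.10 and 1.15 against 10 to 20 Mb, 1.09 and 1.13 for 3 to 4 Mb, and 1.03 and 1.06 without chromosome 7. Pile-up bins, 54 and 83, became 203 and 274 at 5 kb, 20 and 30 at 20 kb, 22 and 39 against the library median and 26 and 50 without chromosome 7. The wild-type count was 53 at 5-fold. The shared share of the mutant bins, 77.8%, became 46.3% at 5 kb, 90% at 20 kb, 100% against the library median and 96.2% without chromosome 7. That of the wild-type bins, 50.6%, became 34.3% at 5 kb, 62.3% at 5-fold and 65.1% with adjacent bins. The ratio between the libraries was 0.977 when scaled by the median 100 kb bin, against 0.992. Reads per position were 1.087 and 1.131 without pile-up bins and 1.091 and 1.137 without chromosomes 9 and 11. Empty bins, 8.08%, became 12.1% at 5 kb and 3.50% without chromosome 14. Bins that differ stayed at 0 with every read, the other scaling and a minimum of 40 positions. Settings that leave out chromosomes or use the library median were chosen after the data were seen.

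Of 228 densities of single ends under the alternatives, 22 lay on the other side of 1. In 9 of these the interval of the reported value excluded 1. Against 5 to 10 Mb these were chromosome 5 in the mutant library (0.996) and chromosome 8 in both (1.06 and 1.11). As median bins they were chromosome 9 in both (0.778 and 0.625) and chromosome 17 in the wild-type library (0.923). Without pile-up bins chromosome 9 lay at 0.685 and 0.626, and for 3 to 4 Mb chromosome 12 in the mutant library lay at 0.994. The cause was not tested. The other 13 concern chromosomes 1, 6, 17 and 18, whose reported intervals include 1 (for 17 in the mutant library). Of 76 ratios between libraries of single ends, 6 crossed 1, on chromosomes 4, 8, 13 and 18, and all 6 had a reported interval that includes 1. Each genotype has 1 library, so none could be left out. No paired analysis was possible because each group holds 1 library. Depth limits single bins, whose median held 10 and 9 positions.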
